A study of Mus musculus with 4 samples.

Results

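The proteasome genes described here are named as subunits of the constitutive proteasome, the cell's main machine for destroying proteins tagged with ubiquitin. They were taken as every gene of the deposited table whose symbol starts with Psma, Psmb, Psmc or Psmd followed by a digit, without the 3 interferon-inducible subunits Psmb8, Psmb9 and Psmb10 and without pseudogenes. That rule gave 37 of the 15586 genes in the table: 8 Psma, 8 Psmb, 7 Psmc and 14 Psmd genes. Of these, Psmc3ip, Psmd5, Psmd9 and Psmd10 encode no subunit of the finished proteasome. RNA was profiled from retinal microglia, immune cells that live in the tissue, of 2-month-old mice of genotype Cx3cr1CreER/+;Tak1fl/fl, sorted on EYFP at 200 cells per library. The 2 control libraries came from mice injected with corn oil on 5 days, and the 2 TAK1 knockout libraries from mice injected with tamoxifen at 75 mg/kg on 5 days. TAK1 is a kinase, encoded by Map3k7, that carries signals from cytokine and innate immune receptors.

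All 4 libraries share the floxed Tak1 alleles and 1 Cx3cr1 allele with the tamoxifen-dependent Cre, although the genotype label of the knockout libraries reads Tak3fl/fl. Cre driven from Cx3cr1 can also act in other cells that express that gene, such as monocytes. Tamoxifen was given to the knockout group only, so drug and deletion cannot be told apart. The title of the series names retinitis pigmentosa, whereas no label of these libraries gives a disease genotype. How many animals went into a library is not given in the sources used here, so p-values measure the spread between libraries, which may be technical.

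The proteasome is built of a barrel and a cap. The barrel, or core particle, has outer rings of alpha subunits (Psma genes), which gate the entrance, and inner rings of beta subunits (Psmb genes), of which Psmb5, Psmb6 and Psmb7 carry the chymotrypsin-like, caspase-like and trypsin-like cutting sites. The cap, or regulatory particle, has a ring of ATPases (Psmc genes) that unfolds substrates and pushes them into the core, and non-ATPase subunits (Psmd genes) that bind ubiquitin chains and cut them off. Subunits are assembled in fixed proportions, and in macrophages and microglia interferon can replace the 3 cutting subunits with Psmb8, Psmb9 and Psmb10, which shape peptides for MHC class I.

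Values were FPKM, which divide fragments by transcript length and by the library's mapped fragments, so levels can be compared between genes. How many reads stand behind a library was unknown, which leaves no interval for counting error. FPKM summed to 812009 to 969700 per library. Readings near 0 were common in genes that read high elsewhere: over 90% of the FPKM of 2514 of the 7823 genes tested (32.1%) lay in a single library. Such a reading cannot be taken as absence of the transcript. Map3k7 read 0.03 and 0 FPKM in controls 1 and 2 and 0.02 and 0.08 FPKM in knockouts 1 and 2, at the floor in both groups, so it could not check the labels. The 11 microglial markers used here were all in the table, and only Sall1, in control 1, read under 1 FPKM.

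What the genes share upstream of their start sites was read from RefSeq promoter windows of 250 bases before and 50 bases after a start (GRCm38.p6, the mm10 assembly). Windows matched 30 of the 37 genes; those for Psma8, Psmb1, Psmb2, Psmb7, Psmc3, Psmd3 and Psmd7 were not used here. The letters CGGAAG, the core bound by ETS-family factors, occurred on either strand in 19 of the 30 genes (63.3%), in 5 of 12 core genes (41.7%) and in 14 of 18 cap genes (77.8%). Of the 6353 tested genes with a window, 38.4% held CGGAAG, as did 18.8% of all 27025 genes with a window. The letters TGACNNNGC, the core of the antioxidant response element through which Nfe2l1 and Nfe2l2 act, occurred in 5 of 30 (16.7%). The share was 17.1% of tested genes and 14.0% of all genes with a window. The CCAAT box occurred in 13 of 30 (43.3%), against 43.3% of tested genes and 41.1% of all genes with a window. Median GC content was 57% in the windows of the proteasome genes and 60.7% in those of tested genes. A match is a run of letters, not a site shown to be bound.

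Stretches upstream of the start are shown for a cutting subunit, Psmb5, with TGACNNNGC in capitals, and for Psmd14, Psmd4, Psmd8 and Psmb3, 4 genes described below, with CGGAAG, or CTTCCG where it lies on the opposite strand, in capitals. All are written 5′ to 3′ on the strand of the gene, in GRCm38.p6 coordinates. They lie at chr14:54618007-54618069 (minus strand), chr2:61711553-61711612 (plus), chr3:95042706-95042765 (minus), chr7:29180674-29180716 (minus) and chr11:97703224-97703283 (plus), in the order printed.
Psmb5: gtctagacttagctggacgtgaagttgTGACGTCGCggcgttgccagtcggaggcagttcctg
Psmd14: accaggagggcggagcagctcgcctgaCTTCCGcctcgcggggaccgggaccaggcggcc
Psmd4: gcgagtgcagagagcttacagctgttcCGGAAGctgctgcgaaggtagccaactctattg
Psmd8: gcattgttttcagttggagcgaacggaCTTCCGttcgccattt
Psmb3: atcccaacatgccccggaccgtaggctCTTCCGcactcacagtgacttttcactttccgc

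The comparison asked whether transcripts of core and cap differed between control and knockout libraries. The core genes were the higher and more even set, with summed levels that overlapped between the groups. Over all 16 core genes the summed FPKM was 7891 and 5217 in controls 1 and 2 and 5549 and 6614 in knockouts 1 and 2. Both knockouts lay between the controls. The group means were 6554 ± 1890 FPKM (SD, n = 2) in controls and 6081 ± 753 FPKM (SD, n = 2) in knockouts, a difference of -0.08 on the log2 scale, knockout minus control (exact two-sided permutation test, p = 1). That difference was 0.15 after quantile normalization, 0.08 with the libraries rescaled to the same sum and -0.97 with median ratio scaling, so its sign depended on the scaling. With 2 libraries against 2 the exact permutation test cannot go below p = 0.333. Fewer cells of a type and less RNA per cell cannot be told apart in such libraries.

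The 21 cap genes summed to 1800 and 1472 FPKM in controls 1 and 2 and to 2175 and 1653 FPKM in knockouts 1 and 2. The groups overlapped, since knockout 2 lay below control 1. Means were 1636 ± 232 FPKM (SD, n = 2) in controls and 1914 ± 368 FPKM (SD, n = 2) in knockouts, a log2 difference of 0.22 (exact two-sided permutation test, p = 0.667). The core took 0.604% to 0.815% of all FPKM of a library, and the cap 0.17% to 0.264%. Summed core over summed cap was 4.38 in control 1, 3.54 in control 2, 2.55 in knockout 1 and 4 in knockout 2. That ratio overlapped too, and its log2 difference of -0.3 was within the spread of the libraries (exact two-sided permutation test, p = 0.667). The sign of the cap's difference turned to -0.66 with median ratio scaling and to -0.2 when 4 genes that are not subunits were left out and the subunits Adrm1 and Sem1 were added. The ratio's difference turned to 0.12 with that change of genes, to 0.05 as a mean of log2 values and to 0.02 without knockout 1.

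**Figure D1:**
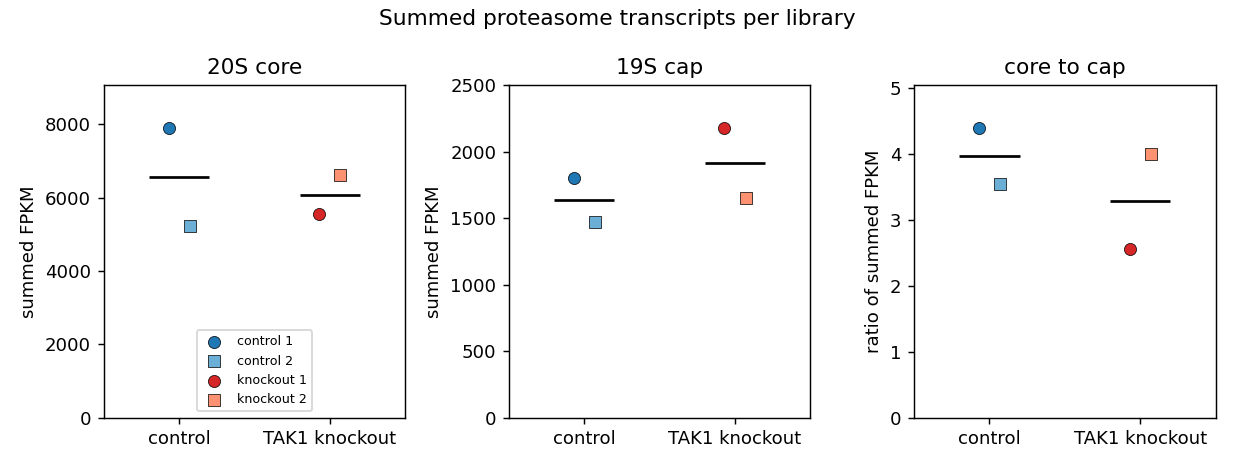
Summed FPKM of the core genes, summed FPKM of the cap genes and the ratio of the sums, on linear axes from 0, for 2 control and 2 TAK1 knockout libraries (points, marked by library) with group means (lines). In each panel the control and knockout points overlap, and knockout 1 has the highest cap sum (2175 FPKM) and the lowest ratio (2.55).

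Gene by gene, 33 of the 37 passed the filter, a mean over the 4 libraries of 1 FPKM or more, 14 of the core and 19 of the cap. The other 4 were Psma8, an alpha subunit of the testis, at up to 0.05 FPKM, Psmb11, the beta subunit of the thymus, at up to 0.02 FPKM, Psmc3ip, a factor of meiotic recombination that shares only its name with the ATPases, at up to 0.63 FPKM, and Psmd3, a structural cap subunit. Psmd3 was listed at 0 in both controls and in knockout 2 and read 2.3 FPKM in knockout 1. Of the 33 tested genes none was called by limma's moderated test with Benjamini-Hochberg adjustment over all 7823 genes (smallest adjusted p = 0.575), and neither was any other gene (0% called). At an unadjusted p under 0.05 there was 1 of 33, Psmd14, higher in the knockouts. Over all genes the same limit gave 6.07% higher and 1.62% lower.

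The groups did not overlap in 10 of the 33: both knockouts exceeded both controls in 5 (15.2%) and fell short of both in 5 (15.2%). Those above were Psma6, Psma7, Psmb3, Psmd11 and Psmd14, and those below were Psma2, Psmb1, Psmc6, Psmd2 and Psmd8. Of all genes tested 27.8% lay above and 11.4% below, and of the 1177 genes whose mean reached 100 FPKM 19% lay above and 26.5% below. After median ratio scaling 0 core genes lay above and 7 below, so Psma6, Psma7 and Psmb3 no longer lay above. In the cap 1 lay above and 4 below, where 20.6% of all genes tested lay above and 20% below. After quantile normalization the core had 3 above and 1 below and the cap 2 and 3, against 18.3% and 19.9% of all genes tested. The median log2 fold change, knockout minus control on the log2(FPKM + 1) scale, was 0.25 over the 14 core genes and 0.75 over the 19 cap genes. It was 0.94 over all genes tested and -0.11 over those at a mean of 100 FPKM or more. Relative to all genes the core stood at -0.69, at -0.95 after median ratio scaling and at 0.38 after quantile normalization, and the cap at -0.19, -0.44 and -0.19. With no filter on low values the core stood at 0.16 and the cap at 0.73, and with a mean of at least 100 FPKM at 0.31 and 0.85. With a pseudocount of 5 FPKM the core stood at -0.26 and the cap at 0.19, with a mean of at least 5 FPKM at -0.46 and 0.05, and without knockout 2 at -0.86 and 1.4. The side of the general shift on which core and cap stood thus depended on these choices. Without control 2 the medians turned to -0.5 for the core and -0.62 for the cap. Without control 1 the cap's was -0.02, and without knockout 2 it was 2.36.

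**Figure D2:**
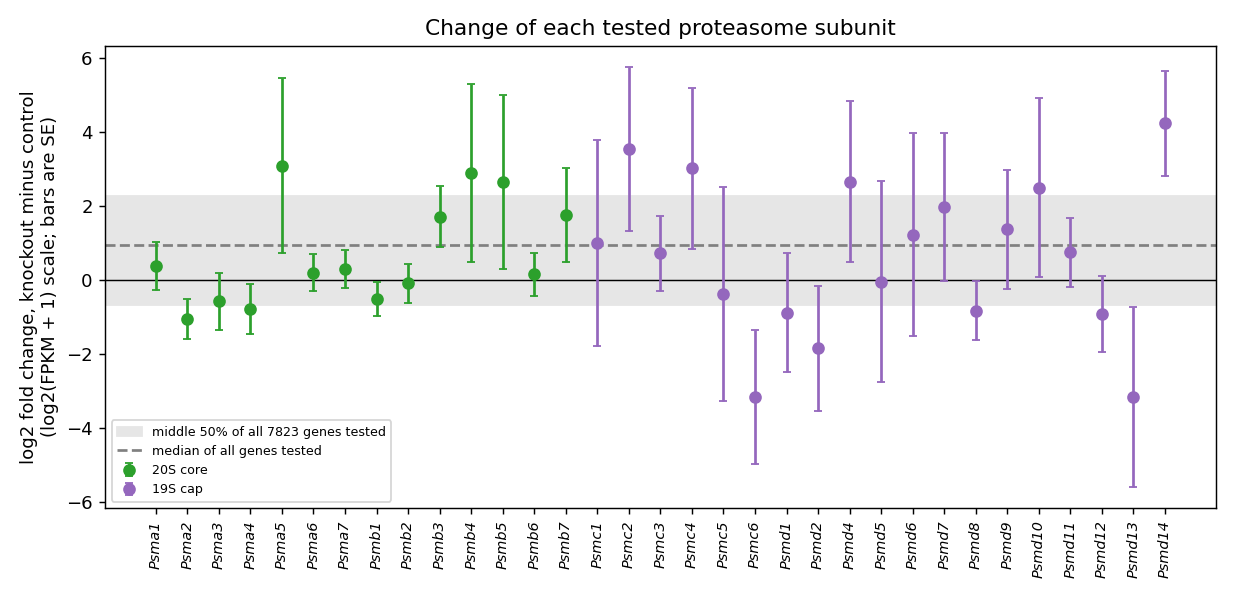
Log2 fold change of each of the 33 tested proteasome genes (points, core and cap in different colours) with its standard error from limma (bars), knockout minus control on the log2(FPKM + 1) scale. The dashed line is the median of all 7823 genes tested (0.94) and the grey band their middle 50%. Psmd14 has the highest value (4.24), and bars are widest among the cap genes.

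In the alpha ring 6 of the 7 tested genes read over 100 FPKM in each library. Psma6 read 447.5 and 436 FPKM in controls 1 and 2 and 479.7 and 536 FPKM in knockouts 1 and 2, and Psma7 read 416, 459, 459.8 and 623 FPKM in the same order. In both genes the knockouts lay just above the controls, by a log2 fold change of 0.20 ± 0.50 (SE) for Psma6 and 0.29 ± 0.51 (SE) for Psma7 (limma adjusted p = 0.873 and 0.79). Psma2 went the other way, at 1002 and 1115 FPKM in control against 327 and 782 FPKM in knockout libraries. Its groups did not overlap, but the knockouts differed from each other by 1.26 log2 units, more than the log2 fold change of -1.06 ± 0.55 (SE; limma adjusted p = 0.698).

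Psma4 read 614 and 349.7 FPKM in control against 188 and 381 FPKM in knockout libraries, with overlap. Psma1 and Psma3 also overlapped, at 212 to 478 and 239 to 806 FPKM over the 4 libraries. Psma5 read 409 FPKM in control 1, 1.24 in control 2, and 284 and 236 FPKM in the knockouts. Its log2 fold change of 3.1 ± 2.36 (SE; limma adjusted p = 0.698) rested on the single low reading of control 2, and without that library it was -0.66.

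In the beta ring the 3 genes of the cutting subunits read at very different levels. Psmb6, the caspase-like subunit, read 826 and 411 FPKM in control against 493 and 857 FPKM in knockout libraries. Psmb7, the trypsin-like subunit, read 133 and 15.8 FPKM against 126 and 201 FPKM. Psmb5, the chymotrypsin-like subunit whose upstream stretch with TGACNNNGC is printed above, read 112 and 0 FPKM against 47.4 and 90.7 FPKM. The groups overlapped in all 3, and Psmb5 was the lowest of the 7 tested beta genes in each library.

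Psmb2 and Psmb1, beta subunits without a cutting site, had the highest means of the ring over the 4 libraries. The order differed between libraries: Psmb6 read above Psmb1 in control 1 and knockout 2, Psmb3 did so in knockout 1, and Psmb1 read above Psmb2 in control 2. Psmb2 read 1557 and 632 FPKM in control against 908 and 952 FPKM in knockout libraries, with both knockouts between the controls. Psmb1 read 655 and 982 FPKM in control against 592 and 535 FPKM in knockout libraries, below both controls by a log2 fold change of -0.51 ± 0.46 (SE; limma adjusted p = 0.698). Psmb3 read 251 and 97.3 FPKM in control against 821 and 325 FPKM in knockout libraries. It lay higher in both knockouts, with a log2 fold change of 1.72 ± 0.82 (SE) and an unadjusted p of 0.0809 (limma adjusted p = 0.698). Psmb4 read 450.3 and 1.2 FPKM in control against 184 and 302 FPKM in knockout libraries, and its log2 fold change of 2.91 ± 2.41 (SE) turned to -0.93 without control 2.

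**Figure D3:**
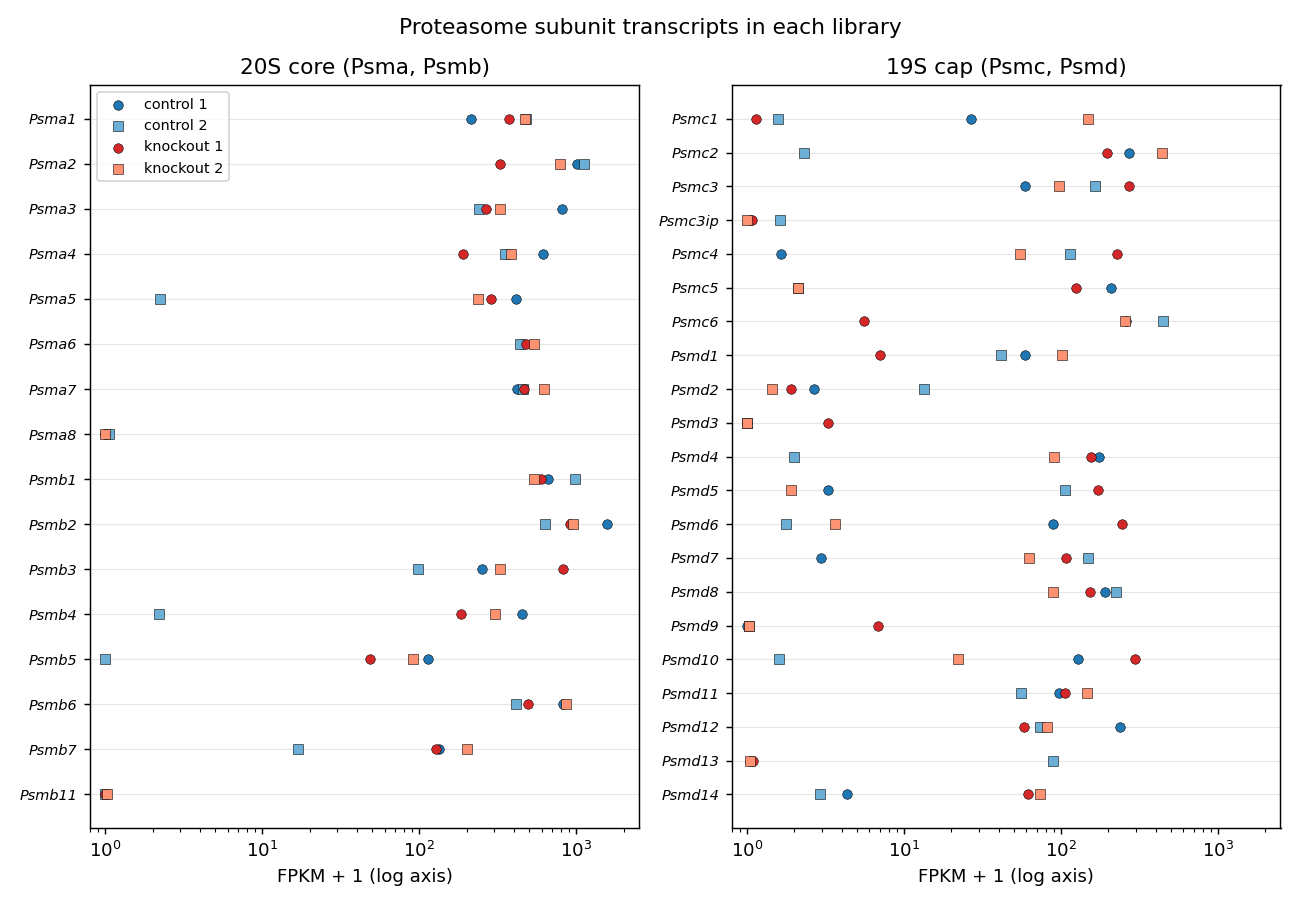
FPKM + 1 on a log axis of each of the 37 proteasome genes in control 1, control 2, knockout 1 and knockout 2 (points), core genes in the left panel and cap genes in the right. Most core points lie between 100 and 1557 FPKM, with Psma8, Psmb11, most points of Psmb5 and, in control 2, Psma5, Psmb3, Psmb4 and Psmb7 below that range, while points of many cap genes are split between near 0 and about 100 FPKM or more.

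The ATPase ring was uneven. Of its 6 tested genes only Psmc3 read at least 10 FPKM in each library, at 58 and 163 FPKM in control against 269 and 96.2 FPKM in knockout libraries. Psmc6 read 259.6 and 443 FPKM in control against 4.56 and 256 FPKM in knockout libraries. Knockout 2 lay just under control 1, and the log2 fold change of -3.17 ± 1.82 (SE; limma adjusted p = 0.698) was -0.41 without knockout 1. Psmc2 read 270.1 and 1.3 FPKM in control against 194 and 437 FPKM in knockout libraries, and Psmc4 read 0.64 and 114 against 225 and 53.4 FPKM. In each of these 2 genes the lone low reading lay in a control, control 2 for Psmc2 and control 1 for Psmc4, and both groups otherwise overlapped. Leaving out that library took the log2 fold change from 3.55 to 0.11 in Psmc2 and from 3.02 to -0.05 in Psmc4. Psmc5 read near 1 FPKM in both libraries numbered 2 (1.11 and 1.1) and 206 and 124 FPKM in the other two. Psmc1 read 25.8 and 0.58 FPKM in control against 0.14 and 147 FPKM in knockout libraries. Neither gene had an order by group.

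Psmd14 (chromosome 2, 61711694 to 61800376, GRCm38.p6) had the smallest p of the 33. It encodes the metalloprotease of the cap that cuts the ubiquitin chain from a substrate as it is drawn in. Psmd14 read 3.33 and 1.92 FPKM in controls 1 and 2 and 60.5 and 72.8 FPKM in knockouts 1 and 2. Each pair agreed and the groups stood far apart, with means of 2.63 ± 0.997 and 66.7 ± 8.7 FPKM (SD, n = 2 each). The log2 fold change was 4.24 ± 1.41 (SE), with an unadjusted p of 0.024 and a limma adjusted p of 0.575. It ranged from 3.96 to 4.53 when 1 library was left out, was 3.48 after median ratio scaling and 3.09 after quantile normalization, and was not called in any of these fits. Both control readings of Psmd14 were under 10 FPKM. Of all genes tested, 58.4% and 64.5% read so low in controls 1 and 2 and 45.9% and 50.4% in knockouts 1 and 2. The part of that difference in the reading of Psmd14 was not tested. The printed upstream stretch of Psmd14 holds CGGAAG on the opposite strand, 114 bases before the start.

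Psmd8, Psmd11 and Psmd12 were the 3 non-ATPase genes that read at least 10 FPKM in each library. Psmd8, a lid subunit, read 190 and 224 FPKM in control against 152 and 88.1 FPKM in knockout libraries, below both controls by a log2 fold change of -0.83 ± 0.80 (SE; limma adjusted p = 0.698). Psmd11, a lid subunit that helps hold core and cap together, read 96.7 and 54.8 FPKM in control against 105 and 145 FPKM in knockout libraries, with a log2 fold change of 0.75 ± 0.93 (SE; limma adjusted p = 0.708). Psmd12, another lid subunit, read 236 and 72.2 FPKM in control against 57.4 and 80.8 FPKM in knockout libraries, and its groups overlapped, with a log2 fold change of -0.93 ± 1.03 (SE). Each of these differences was of about the size of its standard error.

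The remaining non-ATPase genes had at least 1 library under 10 FPKM. Psmd4, a receptor for ubiquitin chains, read 174 and 1 FPKM in control against 154 and 89.1 FPKM in knockout libraries, and its log2 fold change of 2.66 turned to -0.57 without control 2. Psmd13, a lid subunit, read 87.7 FPKM in control 2 and at most 0.09 FPKM in the other libraries, so that 1 library held 99.8% of its FPKM. Psmd2, which with Psmd1 forms the large scaffold of the cap's base, read 1.68 and 12.4 FPKM in control against 0.92 and 0.45 FPKM in knockout libraries. Psmd2 lay lower in both knockouts, at levels near the floor. Psmd1, Psmd6 and Psmd7 read between 0.78 and 242 FPKM with overlap of the groups.

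The genes Psmd5, Psmd9 and Psmd10 encode chaperones that help build the ATPase ring and leave before the cap is complete. Psmd10, also called gankyrin, read 127 and 0.6 FPKM in control against 295 and 21 FPKM in knockout libraries. Psmd5 read 2.27 and 106 FPKM against 169.9 and 0.92 FPKM. Neither had an order by group. Psmd9 read at most 0.03 FPKM except in knockout 1, at 5.78 FPKM, and passed the filter through that library alone. It was the only one of the 33 genes that any alternative fit called: without knockout 2 it was higher, in a fit that called 1306 genes higher and 5 lower and that assumes the lone knockout library to vary like the controls.

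Replicate libraries lay closer together in the core genes than in the cap genes, which also read lower; that difference was not tested. The median over genes of the absolute log2 difference between the 2 controls was 1.23 for the 14 core genes and 4.09 for the 19 cap genes, against 1.02 for all genes tested. Between the 2 knockouts it was 0.55, 1.47 and 1.66. The median absolute log2 fold change was 0.69 in the core and 1.38 in the cap. Both values were below the difference of the controls, and the core's was above that of the knockouts. A difference between means of 2 libraries varies less than one between single libraries, so these values are not on the same footing. Among genes whose mean reached 100 FPKM, the controls differed by a median of 1.17 in 13 core genes and 1.58 in 8 cap genes. In all 1177 genes at that level they differed by 0.75. The knockouts differed by 0.44 in the core, 0.97 in the cap and 0.74 in all genes at that level. Of the 13 core genes whose mean reached 100 FPKM, 11 (84.6%) read at least 10 FPKM in each library, close to the 86.3% of all 1177 genes at that level. Of the 8 cap genes at that level 4 (50%) did so. Counting every library, none of the 8 reached 100 FPKM in all 4, whereas 9 core genes did. The median of the gene means was 129 FPKM in those 8 and 409 FPKM in the 13 core genes, so the 2 sets were not matched for level.

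Low readings of the higher proteasome genes gathered in control 2. Over all 21 cap genes they were spread over the libraries: 9 read under 10 FPKM in control 1, 10 in control 2 and 8 in each knockout. Over all 16 core genes 2 did so in control 1, 5 in control 2 and 2 in each knockout. Of the proteasome genes whose mean reached 100 FPKM, control 2 was under 10 FPKM in 2 of 13 core genes and 3 of 8 cap genes. Control 1 and knockout 2 had none, and knockout 1 had 1 of 8 in the cap. Among all 1177 genes at that level the share under 10 FPKM was 7.14% in control 2, 3.91% in control 1, 1.61% in knockout 1 and 2.63% in knockout 2. Psma5, Psmb4, Psmc2, Psmd4 and Psmd10 were those 5 genes in control 2.

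**Figure D4:**
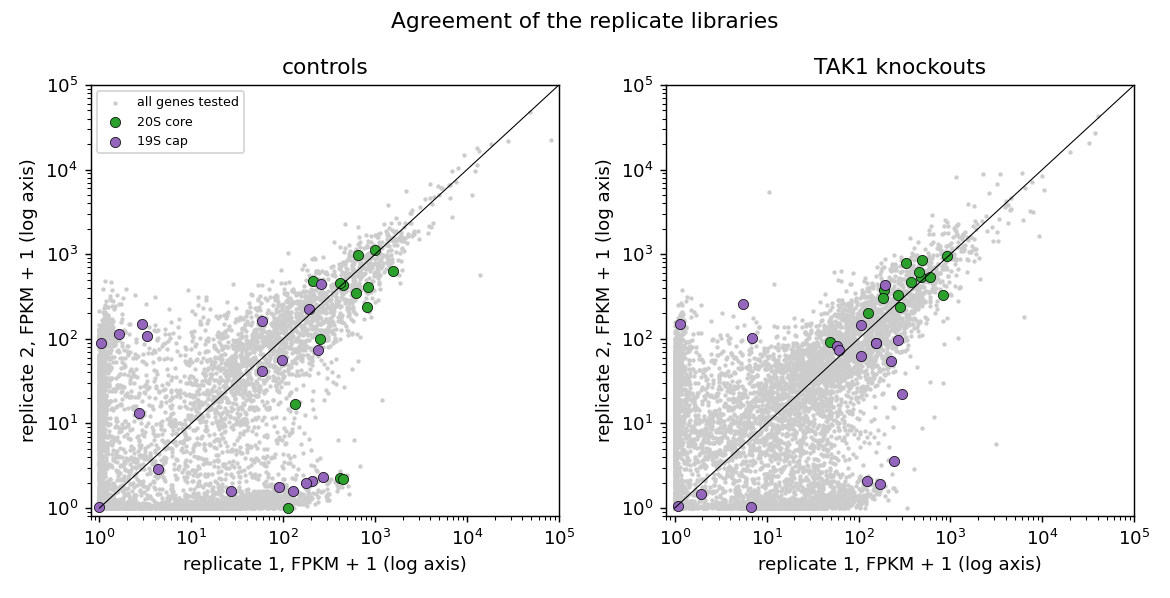
FPKM + 1 of replicate 2 against replicate 1 on log axes for the controls and for the TAK1 knockouts, with all 7823 genes tested in grey, the 14 core genes and the 19 cap genes in colour, and a line of equality. Core genes lie near the line apart from Psma5, Psmb4, Psmb5 and Psmb7, which read low in control 2, and cap genes lie along both edges as well as near the line.

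The inducible subunits, set beside their constitutive counterparts, showed no common order. Psmb8, the counterpart of Psmb5, read 481 and 142 FPKM in control against 237 and 177 FPKM in knockout libraries, above Psmb5 in each library. Psmb9 read 72 and 95.3 FPKM against 106 and 1.12 FPKM, below Psmb6 in each library. Psmb10 read 0.17 and 2.6 FPKM against 23.2 and 30.9 FPKM, below Psmb7 in each library and higher in both knockouts (limma adjusted p = 0.674).

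Partners of the proteasome, none of them among the 37 genes, were taken from lists, and of their 52 tested genes limma called 0. At an unadjusted p under 0.05 there were 3 higher and 2 lower among them, against 6.07% and 1.62% of all genes tested. Both knockouts lay above both controls in 15 and below both in 8, close to the 27.8% and 11.4% of all genes tested. Sem1, a small cap subunit outside the naming rule, read 1065 and 990.0 FPKM in control against 519.9 and 503 FPKM in knockout libraries. Both pairs agreed closely and did not overlap, with a log2 fold change of -1 ± 0.42 (SE), an unadjusted p of 0.0529 and a limma adjusted p of 0.66. Adrm1, a ubiquitin receptor of the cap, read 0.05 and 0 FPKM against 51.5 and 2.41 FPKM. Of 5 assembly chaperones of the core 1 was above the controls in both knockouts and 2 were below, against 27.8% and 11.4% of all genes tested. Psmg2, which pairs with Psmg1 to build the alpha ring, read 0.07 and 0.14 FPKM in control against 54.9 and 162 FPKM in knockout libraries (unadjusted p = 0.0062, limma adjusted p = 0.559). Pomp, which guides assembly of the beta ring, read 1244 and 2297 FPKM against 1165 and 1715 FPKM. It was higher than each of the 37 genes in every library but control 1, where Psmb2 was higher. Psmg4 read 279 and 107 FPKM against 74.9 and 53.9 FPKM, below both controls.

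Of 6 activators and inhibitors of the core 1 lay above and 1 below, where 27.8% of all genes tested lay above and 11.4% below. These shares also stand beside the counts of the 2 lists that follow. Psme1 and Psme2, the interferon-inducible activator that can take the place of the cap, read 309 and 504 FPKM against 332 and 147.5 FPKM, and 1099 and 472 FPKM against 422 and 469.7 FPKM. Of 10 tested deubiquitinases, ligases and shuttle factors that bind the proteasome 2 lay above and 1 below. Uchl5, a deubiquitinase of the cap, read 96.8 and 219.5 FPKM against 138 and 75.8 FPKM, and Ube3c, a ubiquitin ligase, was listed at 0 in both controls and read 17.7 and 1.99 FPKM in the knockouts. Pithd1 read 3.84 and 0.09 FPKM against 14.4 and 4.81 FPKM, above both controls in both knockouts. Of 5 tested genes listed under the transcriptional response to a blocked proteasome 1 lay above and none below. The 1 above was Ctnnb1, at 19.6 and 44.1 FPKM against 46.6 and 63 FPKM. The groups overlapped in Nfe2l1, Nfe2l2, Mafk and Mafg. Nfe2l1, the factor that raises subunit genes in that response, read 32.4 FPKM in control 1 and at most 0.4 FPKM in the other libraries. Mafk, a partner factor, read 8.72 FPKM in knockout 1 and at most 0.02 FPKM elsewhere, and Nfe2l2 read 27.9 and 90.3 FPKM against 80.5 and 59.8 FPKM.

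Of 3 ubiquitin genes 1 lay above and 1 below, and none passed the test. For this list and those that follow, 27.8% of all genes tested lay above and 11.4% below. Ubb, which encodes a chain of ubiquitin units, read 6374 and 6613 FPKM in control against 10023 and 8425 FPKM in knockout libraries, with a log2 fold change of 0.50 ± 0.15 (SE) and a limma adjusted p of 0.562. Rps27a, a fusion of ubiquitin with a ribosomal protein, read 877 and 1044 FPKM against 296 and 444 FPKM (limma adjusted p = 0.582). Of 8 ubiquitin-activating enzymes and parts of the p97 segregase, which pulls tagged proteins out of complexes, 4 lay above and none below; Nploc4 read 0 and 0.03 FPKM against 3.14 and 23.3 FPKM. Faf1 read 47.1 FPKM in knockout 1 and at most 0.09 FPKM elsewhere, and Ufd1 read 165 and 0.23 FPKM against 53.4 and 0.4 FPKM. Downstream, of 10 genes that trim, carry or present the peptides 3 lay above and 2 below. B2m read 12754 and 11220.0 FPKM against 7705 and 7185 FPKM, and the peptidase gene Lap3 read 0.12 and 0.21 against 23.1 and 43 FPKM (limma adjusted p = 0.559 and 0.574).

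Summed markers of other cells also differed between these libraries. The 14 rod photoreceptor markers, all in the table, summed to 2247 and 3255 FPKM in control against 6393 and 9402 FPKM in knockout libraries, with Pde6a listed at 0 in control 2. The 7 of 9 monocyte markers in the table summed to 377 and 445 FPKM in control against 7.5 and 219 FPKM in knockout libraries. Only Ccr2 lay below both controls in both knockouts, at 316 and 151 against 1.81 and 0.59 FPKM, where 11.4% of all genes tested did so. Plac8 and S100a6 read 173 and 118 FPKM in control 2 and at most 0.4 FPKM elsewhere. F13a1 and Ly6c1 went the other way, at 119 and 91.7 FPKM in knockout 2 and at most 0.18 FPKM elsewhere. F13a1 is also on the border macrophage list. The 11 microglial markers, of which Gpr34 had the highest mean, summed to 2327 and 1998 FPKM against 5937 and 3061 FPKM. Gpr34 read 927 and 481 against 1862 and 1154 FPKM, and P2ry12 569 and 790 against 1794 and 830 FPKM. Of the 11, 6 lay above both controls in both knockouts, against 27.8% of all genes tested. Cx3cr1 lay below both, at 101 and 88.9 against 88.2 and 73 FPKM, and 11.4% of all genes tested did so. The 7 bipolar cell markers, of which 5 were tested, summed to 4.4 and 180.1 FPKM against 907 and 759.4 FPKM, with Cabp5 at up to 0.08 FPKM. The 8 Müller glia markers, of which 6 were tested, summed to 215 and 379 FPKM against 958 and 671 FPKM. Gfap and Kcnj10 read at up to 0.02 FPKM. Glul made up most of the knockout sums, at 84.6 and 318 FPKM in control against 774 and 599 FPKM in knockout libraries. Crym went the other way, at 84 and 58.5 against 25.4 and 45.3 FPKM. The 8 border macrophage markers, of which 7 were tested, summed to 2222 and 1752 FPKM against 189.8 and 833 FPKM, with Cd163 at up to 0.02 FPKM. Of these, Ms4a7 read 1614 and 1547 FPKM in control against 189 and 155 FPKM in knockout libraries and Clec12a 144 and 199 against 0.36 and 0.48 FPKM. They were the 2 of the 7 tested that lay below both controls in both knockouts, against 11.4% of all genes tested. Pf4 read 367 and 1.04 against 0.51 and 303 FPKM and Mrc1 97.1 and 5.32 against 0.05 and 97.2 FPKM, without an order by group. Cbr2, F13a1 and Lyve1 went the other way, at 96.7, 119 and 61.8 FPKM in knockout 2 and at most 0.18 FPKM elsewhere. Proteasome genes are used by all of these cells, and the part of such shifts in the readings above was not tested.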

How the data were processed

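Full-length cDNA was made with SMART-SeqII from 200 sorted cells per library and then preamplified, per the labels' protocols. The values deposited by the authors are FPKM with 2 decimals, 1 column per library. Per the submitters' processing notes the build was mm10. Which aligner, quantifier and annotation were used is not given in the sources used here. Read numbers are unknown. Reads shared with processed pseudogenes cannot be told apart.

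Columns were matched to samples by title. Genes averaging 1 FPKM or more (7823) were tested on log2(FPKM + 1), a scale that understates changes of low genes. The test was limma's (3.58.1, R 4.3.3), with a trend in the prior variance, 3.99 prior and 2 residual degrees of freedom, Benjamini-Hochberg adjustment over all of them and a threshold of 0.05. The code was tested on simulated data whose replicates lay much closer together than these libraries. That checks the code and not the power of the test here. Sums over genes were compared by exact permutation over libraries. Of the 37 genes all matched a GRCm38.p6 RefSeq gene table by identifier. Limits of 10 and 100 FPKM, and the promoter letters, were chosen after values were seen. Genes and lists were chosen with earlier results of these data known. Values per library are given for the 3 cutting subunits and, in each of the 4 roles, the 3 tested genes with the smallest p and the 3 with the highest mean, and from each partner list the 2 with the smallest p or the highest mean. Other genes were named after their values were seen. Some genes of the partner and marker lists are not reported here and are left out of those lists' counts and sums. Alternatives were other pseudocounts, filters, scalings, variance models, a replicate block, a stricter list of subunits and leaving out each library.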

Additional observations from a re-analysis of the deposited data

How the results depend on the processing

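The log2 difference of the core sum was -0.08 as deposited, 0.08 after rescaling to the same sum, 0.15 after quantile normalization and 0.63 as a mean of log2 values; leaving out 1 library it ranged from -0.38 to 0.22. The cap sum's difference was 0.22, but -0.66 after median ratio scaling and -0.2 with subunits only; leaving out 1 library it ranged from 0.02 to 0.42. The core to cap ratio's was -0.3, but 0.05 as a mean of log2 values and 0.12 with subunits only, with a range of -0.63 to 0.02 leaving out 1 library. No sum could pass, since 2 against 2 allows no p below 0.333; the cause of the changes of sign was not tested. The core median of 0.25 was -0.64 after median ratio scaling and 0.5 after quantile normalization, with a range of -0.5 to 0.53 leaving out 1 library. The cap median of 0.75 was -0.12 and -0.06 under the same scalings, with a range of -0.62 to 2.36. Genes whose groups did not overlap numbered 5 in the core, 7 after median ratio scaling, all of them below, and 6 to 13 leaving out 1 library. In the cap they numbered 5, 3 at a mean of at least 100 FPKM, where 8 genes were tested, and 10 to 14 leaving out 1 library. Leaving out 1 library also raised the shares of all genes tested, from 27.8% to between 42.1% and 45.6% above and from 11.4% to between 21.3% and 27.3% below. Over all genes 0 were called, 5 after quantile normalization and 0 to 1311 leaving out 1 library; 0 of the 33 was among the 5, and Psmd9 was among the 1311. Leaving out 1 library, log2 fold changes ranged from -0.66 to 6.86 in Psma5, from -0.93 to 6.75 in Psmb4, from -0.05 to 6.08 in Psmc4 and from -0.57 to 5.88 in Psmd4. With the replicate number as a block 35 genes were called, none of the 33. The numbers do not pair the libraries by any label, and deviations from the group means of same-numbered libraries correlated at 0.017 across 7823 genes. Unknown depth limits what a reading near 0 can show.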
